A study of Mus musculus with 6 samples.

Results

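A set of 9 genes of cardiac energy transfer and oxygen storage was followed in the left ventricle of Chow and HFpEF mice. They are the creatine kinases Ckm, Ckmt2 and Ckb, the creatine transporter Slc6a8, the adenylate kinase Ak1, the ADP/ATP carriers Slc25a4 and Slc25a5, the phosphate carrier Slc25a3, and myoglobin, Mb. They were chosen by symbol, so that muscle types could be set beside brain-type or ubiquitous ones, and all 9 were found by Ensembl identifier among the 54532 genes of the RNA sequencing table. HFpEF, heart failure with preserved ejection fraction, was modelled in male C57BL/6 mice aged 6 to 8 weeks at the start by a high-fat diet (60% of kcal from fat) together with L-NAME, which blocks nitric oxide synthesis, dissolved in the drinking water (0.5 g/L) for 12 weeks. Chow mice received standard chow and plain water for the same 12 weeks. Each group comprised 3 libraries, each from the left ventricular myocardium of a different mouse, and no allele or transgene was involved. Diet and drug were given together, so their parts in any difference cannot be told apart.

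Creatine kinase moves a phosphate group between ATP and creatine. In heart muscle the mitochondrial form charges creatine where ATP is made, and the cytosolic dimer, built from muscle-type (M) and brain-type (B) subunits, recharges ATP beside the myofibrils and ion pumps. Cardiomyocytes take up creatine from the blood through a transporter. Adenylate kinase joins this network by turning a pair of ADP molecules into ATP and AMP, the inner membrane carriers exchange ADP for ATP and bring in phosphate, and myoglobin stores oxygen and eases its diffusion to mitochondria.

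Ckm and Ckb encode the M and B subunits, and Slc25a4 and Slc25a5 the muscle and the more widely expressed ADP/ATP carrier. The start regions of these 4 genes are shown because the results below set the members of each pair against each other. RefSeq start regions on GRCm38.p6, each of 300 bases from 250 before the transcription start to 50 after it, were found for 8 of the 9 genes. Capitals mark the letters of 5 motifs searched on both strands: the E-box (CANNTG), a TATA box (TATANA), the CCAAT box (CCAAT), the M-CAT element (CATTCC) and a MEF2-type motif, with CTA and TAG set 4 bases apart. Adjoining or overlapping matches run together. The Ckm region lies at chr7:19410844-19411143 on the plus strand, Ckb at chr12:111672289-111672588 on the minus strand, Slc25a4 at chr8:46211013-46211312 on the minus strand, and Slc25a5 at chrX:36795347-36795646 on the plus strand. Each is printed 5′ to 3′ along its gene.
Ckm: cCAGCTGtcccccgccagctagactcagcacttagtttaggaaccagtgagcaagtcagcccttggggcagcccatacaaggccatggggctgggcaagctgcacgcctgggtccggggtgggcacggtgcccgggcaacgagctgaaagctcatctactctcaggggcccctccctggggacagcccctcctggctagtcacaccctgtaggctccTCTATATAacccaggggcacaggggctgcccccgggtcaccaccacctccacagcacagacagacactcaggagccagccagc
Ckb: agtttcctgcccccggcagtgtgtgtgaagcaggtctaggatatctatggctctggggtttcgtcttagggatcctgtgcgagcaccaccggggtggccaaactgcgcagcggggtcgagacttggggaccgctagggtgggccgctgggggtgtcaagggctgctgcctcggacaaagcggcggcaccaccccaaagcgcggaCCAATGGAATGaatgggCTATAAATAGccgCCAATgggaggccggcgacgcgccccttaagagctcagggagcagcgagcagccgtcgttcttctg
Slc25a4: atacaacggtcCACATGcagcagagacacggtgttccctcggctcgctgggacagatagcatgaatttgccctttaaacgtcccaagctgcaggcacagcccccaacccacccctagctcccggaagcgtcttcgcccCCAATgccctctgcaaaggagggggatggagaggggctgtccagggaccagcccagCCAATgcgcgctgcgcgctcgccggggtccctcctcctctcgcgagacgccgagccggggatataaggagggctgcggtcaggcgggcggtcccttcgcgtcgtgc
Slc25a5: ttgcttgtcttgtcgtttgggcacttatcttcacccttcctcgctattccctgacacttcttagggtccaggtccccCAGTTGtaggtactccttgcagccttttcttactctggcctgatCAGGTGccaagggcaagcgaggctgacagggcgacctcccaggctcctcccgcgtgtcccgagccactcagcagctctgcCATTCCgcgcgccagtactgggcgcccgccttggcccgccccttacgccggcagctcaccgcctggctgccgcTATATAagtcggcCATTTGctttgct

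The Ckm region held an E-box with its first base at -249 from the start and overlapping TATA matches at -33 and -31, with none of the other 3 motifs and 7 CG dinucleotides. The Ckb region held no E-box. It held CCAAT at -46 and -16, CATTCC at -41, and a TATA match at -28 lying inside a MEF2-type match at -29, with 22 CG dinucleotides. The Slc25a4 region held an E-box at -239 and CCAAT at -112 and -56, with 25 CG dinucleotides. The Slc25a5 region held E-boxes at -173, -129 and 38, CATTCC at -49 and a TATA match at 25, with 18 CG dinucleotides. These positions hold for the RefSeq start. GENCODE, the source of the gene positions given below, starts Slc25a5 at chrX:36795651, past the end of this region. It starts Ckm at chr7:19404776, upstream of the printed Ckm region. It starts Slc25a4 at chr8:46211284, inside the printed Slc25a4 region and upstream of the RefSeq start. Over all 32851 RefSeq start regions, 72.3% held an E-box, 24.7% the TATA letters, 37.4% CCAAT, 14.7% CATTCC and 3.69% the MEF2-type letters, and the median region had 7 CG dinucleotides. These are matches of letters in a window and are not evidence of binding.

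Levels are in FPKM, fragments counted for a gene relative to its exon length and a denominator for the library, which is per length and therefore comparable between genes. Recovered gene reads were 13076772 to 15574914 in Chow and 13461735 to 16027084 in HFpEF. The denominator was below the read sum in all 3 Chow libraries and above it in all 3 HFpEF libraries, most so in HFpEF replicate 3 (19316900 against 15196287). All FPKM summed to 479583 to 499791 in Chow and 249848 to 408418 in HFpEF, so levels depend on that scaling, and values under other scalings are given below. The least deeply read of the 9, Ckb, had 591 to 694 reads in Chow and 903 to 1359 in HFpEF. HFpEF replicate 3 stood apart from the other libraries, with 7.17% of its reads on mitochondrial genes against 20.1% to 26.0% elsewhere. Its fibroblast marker sum over 8 genes was 5522 FPKM. That sum was 220 to 259 FPKM in Chow, and 425 and 494 FPKM in HFpEF replicates 1 and 2. In HFpEF replicate 3 Col1a1 (2252 FPKM), Col3a1 (1810), Col1a2 (702) and Postn (356) carried most of it, and Lum was also high (182). Dcn (196 FPKM, against 177 and 168 in HFpEF replicates 1 and 2), Pdgfra and Tcf21 did not set replicate 3 apart. Postn, Lum, Dcn, Pdgfra and Tcf21 were picked after their values were seen. All 12 ventricular cardiomyocyte markers were detected in every library. The atrial list (5 genes, among them Myl7 and Nppa) summed to 13.3, 16.2 and 538 FPKM in Chow replicates 1 to 3 and to 2453, 3834 and 20.6 FPKM in HFpEF replicates 1 to 3, so the level of atrial transcripts differed between libraries of the same group. The adipocyte list (7 genes) summed to at most 0.0929 FPKM in Chow and to 30.0 to 67.2 FPKM in HFpEF. The part of fibroblast, atrial and adipocyte RNA in the results below was not tested.

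In the Chow ventricle Mb was the most abundant of the genes and Ckb the least. The order Mb, Slc25a4, Ckmt2, Ckm, Slc25a3, Ak1, Slc25a5, Slc6a8, Ckb held in each of the 3 Chow libraries, and the ranges of neighbouring genes did not overlap within that group. In HFpEF the same order held in replicates 1 and 2. In replicate 3 Ckm (117 FPKM) was below Slc25a3 (137 FPKM), and within the HFpEF group the ranges of Slc25a4 and Ckmt2, of Ckm and Slc25a3, and of Slc25a3 and Ak1 overlapped. Mb was the third most abundant nuclear gene in all Chow libraries and in HFpEF replicates 1 and 2, and the fourth in HFpEF replicate 3.

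**Figure D1:**
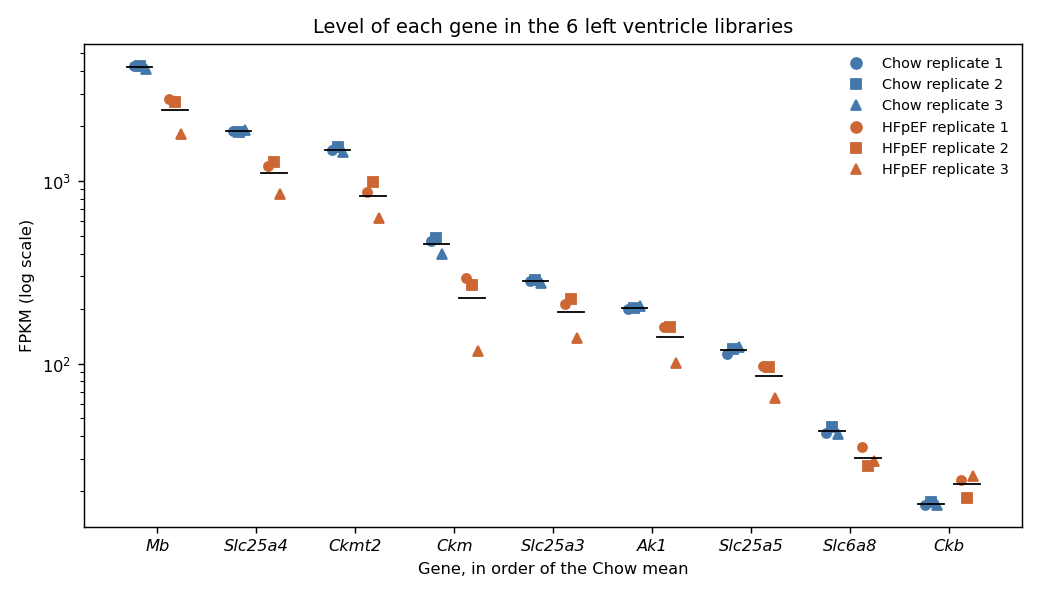
FPKM of the 9 genes on a log axis in each of the 6 libraries, ordered by Chow mean, with blue for Chow, orange for HFpEF, marker shape for the replicate number and a black line for the group mean of 3. Mb lies highest (mean 4209 in Chow and 2444 in HFpEF) and Ckb lowest (17.1 and 22.0), and the HFpEF points are below the Chow points for every gene but Ckb.

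Of the 9 genes, 8 were lower in every HFpEF library than in every Chow library, and Ckb was higher in every one. With limma, which tested 14227 genes, 8 of 9 genes were lower and 1 of 9 was higher at an unadjusted p under 0.05, against 13.1% of all genes tested lower and 10.2% higher. Every HFpEF library lay below every Chow library for 19.7% of all genes tested and above it for 15.6%. After Benjamini-Hochberg adjustment over all genes tested none of the 9 passed 0.05, with limma adjusted p from 0.119 to 0.192, and 0.00703% of all genes passed as lower and 0.0914% as higher. The median log2 fold change of the 9 genes was -0.59 beside -0.01 for all genes tested. It was -0.58 for the 333 nuclear genes with a mean of at least 100 FPKM over the 6 libraries, of which 54.4% were lower at an unadjusted p under 0.05. Of these 333 genes 277 had a fold change below 0, so the direction of the 8 genes was that of most abundant transcripts. The 333 include each of the 8 except Slc6a8, which was below 100 FPKM in every library. For single genes the smallest p that an exact two-sided permutation test of 3 against 3 can give is 0.1, and each of the 9 gave that value.

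HFpEF replicate 3 decided the side of the threshold. Without it, 7 genes (Ckm, Ckmt2, Ak1, Slc25a4, Slc25a5, Slc25a3 and Mb) were lower at a limma adjusted p between 0.0126 and 0.0471, while 5.5% of all genes tested were lower and 2.85% higher. Slc6a8 (limma adjusted p = 0.0572) and Ckb (limma adjusted p = 0.182) did not pass in that fit. Its removal brought the log2 fold change of Ckm from -1.10 to -0.68, of Ak1 from -0.57 to -0.36, of Slc25a3 from -0.59 to -0.37 and of Slc25a5 from -0.49 to -0.29, each a change of more than 1.5 times.

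Muscle-type creatine kinase, Ckm (ENSMUSG00000030399, chr7:19404776-19422841, plus strand), measured 468, 489 and 399 FPKM in Chow replicates 1 to 3. It measured 295, 269 and 117 FPKM in HFpEF replicates 1 to 3. The highest HFpEF library was below the lowest Chow library, and HFpEF replicate 3 was far below the other 2. The means were 452 ± 47.1 (SD, n = 3) and 227 ± 96.4 FPKM, 49.7% lower in HFpEF, with a log2 fold change of -1.10 (SE 0.36, limma adjusted p = 0.158). An opposite-strand gene covers 15.5% of its exon bases, and whether the reads were counted by strand is not given in the sources used here.

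Mitochondrial creatine kinase of striated muscle, Ckmt2 (ENSMUSG00000021622, chr13:91853387-91876885, minus strand), was more abundant than Ckm in all 6 libraries. It measured 1484, 1535 and 1435 FPKM in Chow and 870, 987 and 624 FPKM in HFpEF. No library of one group reached the range of the other. The means were 1485 ± 49.6 and 827 ± 186 FPKM, 44.3% lower in HFpEF, with a log2 fold change of -0.87 (SE 0.22, limma adjusted p = 0.119).

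Brain-type creatine kinase, Ckb (ENSMUSG00000001270, chr12:111669361-111672338, minus strand), was the single gene of the 9 with the higher level in HFpEF. It measured 16.8, 17.5 and 16.9 FPKM in Chow and 23.1, 18.4 and 24.3 FPKM in HFpEF. HFpEF replicate 2 was close to the Chow range, and replicates 1 and 3 were well above it. The means were 17.1 ± 0.346 and 22.0 ± 3.12 FPKM, 28.7% higher in HFpEF, with a log2 fold change of 0.35 (SE 0.13, limma adjusted p = 0.180). The smooth muscle and pericyte list of 7 genes was likewise high in HFpEF replicates 1 (671 FPKM) and 3 (502 FPKM) and not in replicate 2 (200 FPKM), against 261 to 304 FPKM in Chow, and its part in the Ckb level was not tested. Acta2 carried that sum, at 422, 48.8 and 262 FPKM in HFpEF replicates 1 to 3. Myh11 shared the pattern (63.7, 6.99 and 30.4 FPKM, against 9.36 to 12.3 FPKM in Chow). So did Cnn1 (24.7, 0.798 and 10.1 FPKM, against 1.18 to 2.45 FPKM in Chow). Pdgfrb (24.9, 16.9 and 32.2 FPKM, against 19.9 to 22.4 FPKM in Chow) and the barely detected Tagln did as well. Rgs5 and Kcnj8 did not share it. Rgs5 averaged 125 FPKM in HFpEF against 152 in Chow, and Kcnj8 was lower in every HFpEF library (16.6 to 19.4 FPKM against 23.4 to 26.3 FPKM). Myh11, Cnn1, Pdgfrb, Tagln and Kcnj8 were picked after their values were seen. Of the 50-base words in Ckb transcripts, 9.98% also occurred in transcripts of 3 other genes, the pseudogenes Gm12892, Ckb-ps1 and Ckb-ps2. These 3 reached at most 0.245 FPKM in any library.

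Slc6a8, the sodium- and chloride-dependent creatine transporter of the plasma membrane (ENSMUSG00000019558, chrX:73673150-73682502, plus strand), measured 41.9, 45.2 and 41.2 FPKM in Chow and 34.7, 27.4 and 29.1 FPKM in HFpEF. Here HFpEF replicate 2, not replicate 3, was the lowest library. The means were 42.8 ± 2.12 and 30.4 ± 3.82 FPKM, 28.9% lower in HFpEF, with a log2 fold change of -0.50 (SE 0.12, limma adjusted p = 0.119).

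**Figure D2:**
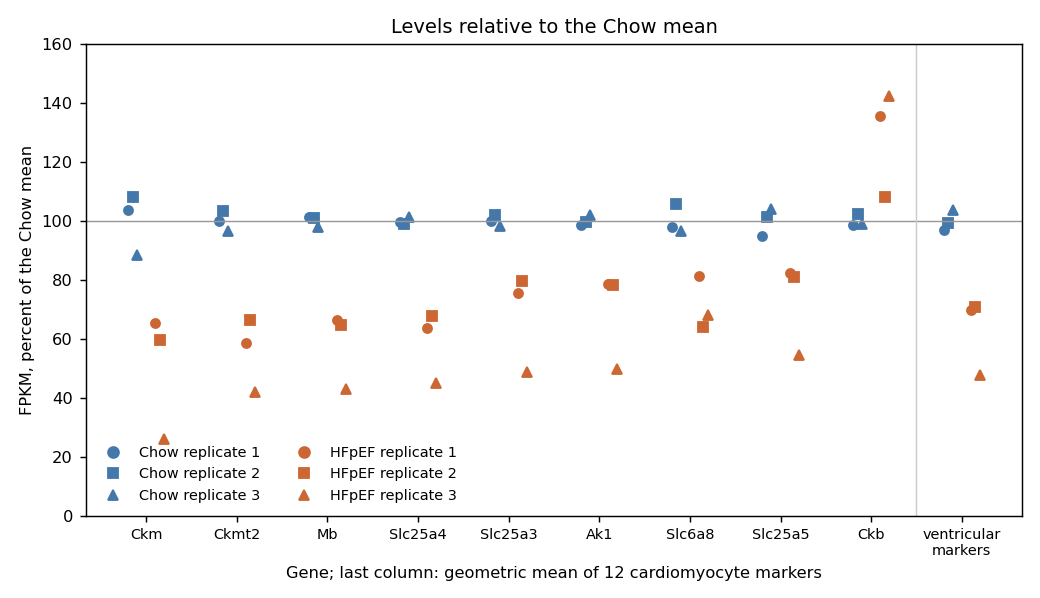
FPKM of each gene as a percent of its Chow mean in each library, with the geometric mean of 12 ventricular cardiomyocyte markers in the last column, blue for Chow, orange for HFpEF and marker shape for the replicate number. The 8 lower genes lie at 58.6% to 82.4% in HFpEF replicate 1, 59.5% to 81.0% in replicate 2 and 25.9% to 68.1% in replicate 3, where the markers lie at 69.9%, 70.8% and 47.7%.

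Within a library a ratio of FPKM does not depend on the scaling between libraries. Ckm over Ckb, the ratio of muscle to brain type, was 27.8, 28.0 and 23.6 in Chow and 12.8, 14.6 and 4.81 in HFpEF. The groups did not overlap, and the mean log2 ratio was lower by 1.45 in HFpEF, or by 0.95 without HFpEF replicate 3. Of the summed FPKM of the 3 creatine kinases, Ckb made up 0.855%, 0.855% and 0.912% in Chow and 1.95%, 1.44% and 3.18% in HFpEF. The brain-type transcript thus remained a small share of creatine kinase RNA in both groups. Ckmt2 over Ckm was 3.17, 3.14 and 3.60 in Chow and 2.95, 3.67 and 5.34 in HFpEF, with overlapping groups, and Ckmt2 made up 76.1% ± 1.31 of the sum in Chow and 77.4% ± 4.17 in HFpEF. The mean log2 ratio of Ckmt2 over Ckm was 0.23 higher in HFpEF with all libraries, and differed by -0.0043 without HFpEF replicate 3. In bulk tissue, fewer cells of a type and less RNA per cell cannot be told apart, and the same holds for a ratio of transcripts that different cell types may supply.

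**Figure D3:**
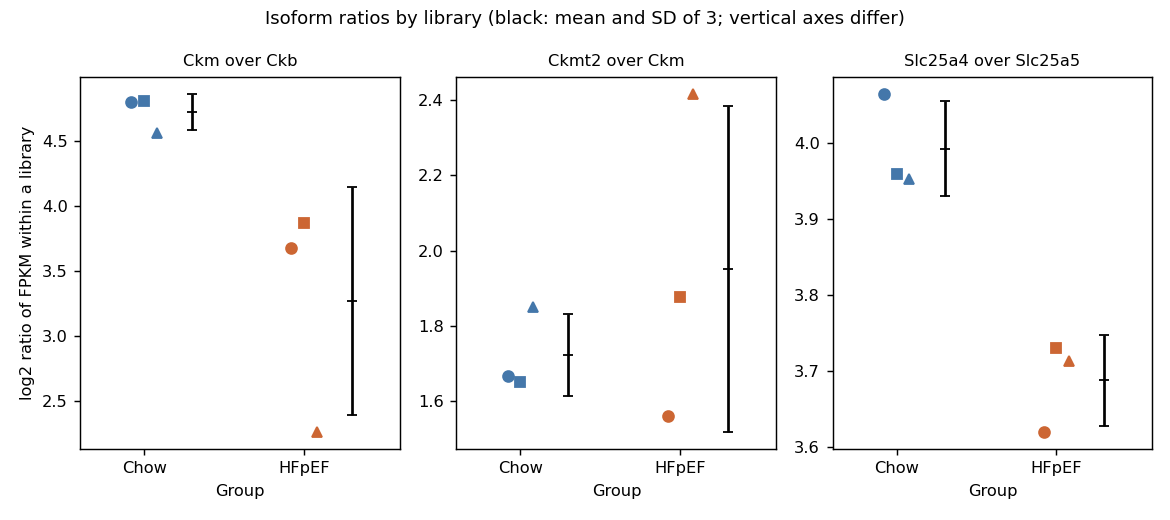
The log2 ratio of FPKM within each library for 3 gene pairs, with blue for Chow, orange for HFpEF, marker shape for the replicate number, and black bars for the mean and SD of 3 libraries; the vertical axes differ. Ckm over Ckb and Slc25a4 over Slc25a5 do not overlap between groups (log2 differences of -1.45 and -0.30), and Ckmt2 over Ckm overlaps (0.23).

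Slc25a4, which encodes the ADP/ATP carrier of heart and skeletal muscle (ENSMUSG00000031633, chr8:46206797-46211284, minus strand), measured 1874, 1864 and 1904 FPKM in Chow. It measured 1199, 1271 and 844 FPKM in HFpEF. The 3 Chow libraries lay at 99.1% to 101% of their mean, and each HFpEF library was well below them. The means were 1881 ± 21.0 and 1105 ± 229 FPKM, 41.2% lower in HFpEF, with a log2 fold change of -0.79 (SE 0.21, limma adjusted p = 0.124).

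Slc25a5, the carrier found in most tissues (ENSMUSG00000016319, chrX:36795651-36798807, plus strand), measured 112, 120 and 123 FPKM in Chow and 97.5, 95.8 and 64.4 FPKM in HFpEF. The groups did not overlap, and HFpEF replicates 1 and 2 were nearer to the Chow range than replicate 3. The means were 118 ± 5.61 and 85.9 ± 18.6 FPKM, 27.4% lower in HFpEF, with a log2 fold change of -0.49 (SE 0.19, limma adjusted p = 0.192). It is the least certain of the 9 in sequence terms, because 33.8% of its 50-base words also occurred in transcripts of 9 other genes, among them Gm5560, Gm5529 and Gm5256. These 3 reached at most 2.19 FPKM in any library.

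The ratio of Slc25a4 to Slc25a5 was 16.7, 15.5 and 15.5 in Chow and 12.3, 13.3 and 13.1 in HFpEF. This ratio did not single out HFpEF replicate 3, and its mean log2 value was lower by 0.30 in HFpEF, against SDs of 0.062 in Chow and 0.059 in HFpEF. Slc25a5 accordingly made up 5.92% ± 0.238 of the summed FPKM of both carriers in Chow and 7.21% ± 0.277 in HFpEF.

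Slc25a3, which carries phosphate into the matrix (ENSMUSG00000061904, chr10:91116574-91124059, minus strand), measured 282, 287 and 277 FPKM in Chow and 213, 225 and 137 FPKM in HFpEF. The groups did not overlap. The means were 282 ± 5.15 and 192 ± 47.3 FPKM, 32.1% lower in HFpEF, with a log2 fold change of -0.59 (SE 0.21, limma adjusted p = 0.174). The gene makes splice forms that differ in an internal exon, which a value per gene does not separate.

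Ak1, the main cytosolic adenylate kinase of muscle (ENSMUSG00000026817, chr2:32621758-32635058, plus strand), measured 199, 201 and 206 FPKM in Chow and 158, 158 and 101 FPKM in HFpEF. HFpEF replicates 1 and 2 were alike, and replicate 3 was lower. The means were 202 ± 3.52 and 139 ± 33.2 FPKM, 31.2% lower in HFpEF, with a log2 fold change of -0.57 (SE 0.20, limma adjusted p = 0.174).

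Mb, myoglobin (ENSMUSG00000018893, chr15:77015487-77050670, minus strand), measured 4260, 4246 and 4120 FPKM in Chow and 2799, 2719 and 1814 FPKM in HFpEF. Again the groups did not overlap and HFpEF replicate 3 was the lowest library. The means were 4209 ± 77.4 and 2444 ± 547 FPKM, 41.9% lower in HFpEF, with a log2 fold change of -0.81 (SE 0.24, limma adjusted p = 0.142). Genes on the opposite strand, Gm49540 and Apol6, cover 31.9% of its exon bases.

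As a median, the 8 lower genes lay close to the level of cardiomyocyte markers in each HFpEF library, while single genes departed from it. The geometric mean of the 12 ventricular markers (among them Actc1 and Myh6) was 1178, 1208 and 1262 FPKM in Chow and 849, 861 and 580 FPKM in HFpEF. All 12 markers were lower in every HFpEF library than in every Chow library. The same held for 19.7% of all genes tested and for 235 of the 333 abundant nuclear genes. As a percent of the Chow mean the marker mean was 69.9%, 70.8% and 47.7% in HFpEF replicates 1 to 3. The medians of the 8 genes there were 70.9%, 67.0% and 46.8%. Slc6a8 was at 81.2%, 64.1% and 68.1% in these libraries, and Ckm was at 25.9% in HFpEF replicate 3. Other lists differed between libraries as well. The endothelial list of 7 genes summed to 292 to 320 FPKM in Chow and 227 to 244 FPKM in HFpEF. Of its genes 7 of 7 had a fold change below 0, beside 7288 of the 14227 genes tested. The macrophage list of 7 genes summed to 214 to 275 FPKM in Chow and to 266, 360 and 901 FPKM in HFpEF replicates 1 to 3. Its groups overlapped, with HFpEF replicate 1 within the Chow range. The part of these cell types in the levels of the 9 genes was not tested. Over the 6 libraries the pairwise Pearson r of log2 values among the 8 genes ran from 0.772 to 0.995 over 28 pairs, and that of Ckb with each of them from -0.932 to -0.614. These are descriptions over 6 libraries that share the group difference.

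Set against the cardiomyocyte markers, the differences in the 8 genes were smaller and that in Ckb was larger. When each library was scaled to the marker mean, the log2 fold changes were -0.40 for Ckm, -0.18 for Ckmt2, -0.12 for Mb and -0.10 for Slc25a4, and they were 0.10 for Slc25a3, 0.12 for Ak1, 0.20 for Slc6a8 and 0.21 for Slc25a5. None of these 8 passed 0.05, with limma adjusted p from 0.0908 to 0.371. Ckb had a log2 fold change of 1.04 (SE 0.24, limma adjusted p = 0.0415), and of 0.78 (limma adjusted p = 0.00618) when HFpEF replicate 3 was also left out, where Slc25a5 passed as well (0.22, limma adjusted p = 0.0294). Under these scalings 35.1% and 53.2% of all genes tested passed as higher, so these calls are not particular to the genes named. This scaling moves the median of all genes tested to 0.66, and to 0.48 without HFpEF replicate 3. Relative to that median the log2 fold change of Ckb was 0.38 and 0.30, and that of Ckm was -1.07 and -0.65. That of Slc25a3, Ak1, Slc6a8 and Slc25a5 was -0.56, -0.54, -0.47 and -0.45. Without HFpEF replicate 3 it was -0.34, -0.33, -0.44 and -0.26. These genes were thus above 0 under this scaling and still below the median of all genes tested. A lower marker mean in HFpEF can stand for fewer cardiomyocytes or for less marker RNA in each, which were not told apart here.

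**Figure D4:**
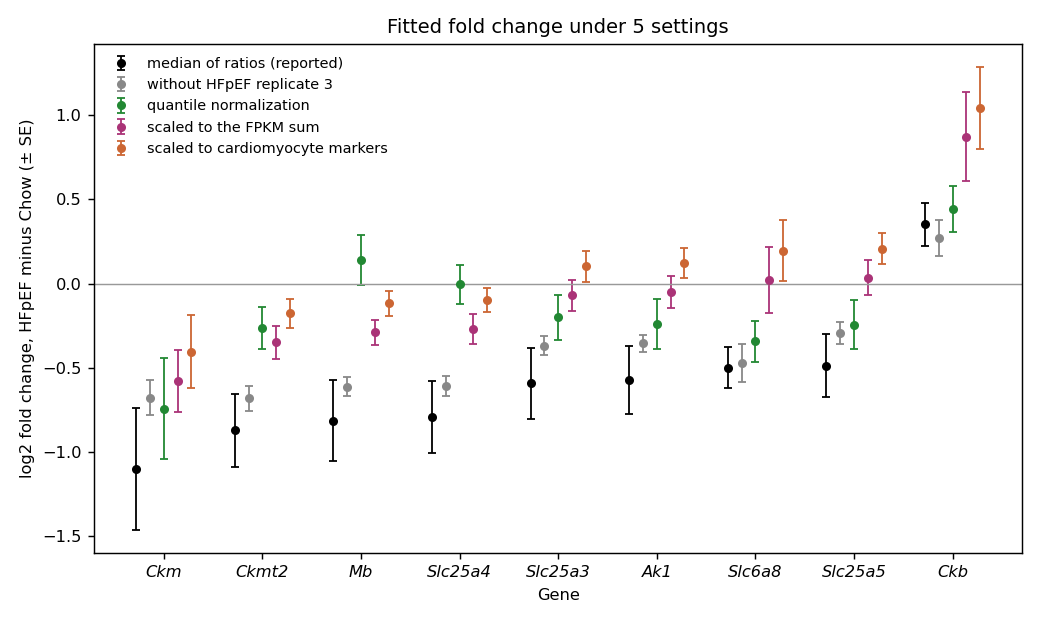
Fitted log2 fold change of HFpEF against Chow (dots, with SE as bars) for each gene under the reported scaling, the same without HFpEF replicate 3, quantile normalization, scaling to the FPKM sum, and scaling to the cardiomyocyte markers. Ckb is above 0 under all 5 and Ckm and Ckmt2 are below 0 under all 5, while Mb (0.14 under quantile normalization) and Slc25a3, Ak1, Slc6a8 and Slc25a5 (0.10 to 0.21 under marker scaling) change sign.

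Among 30 other genes of the same network, 22 could be tested. At an unadjusted p under 0.05, 7 were lower and 2 were higher in HFpEF, beside 13.1% lower and 10.2% higher of all genes tested, so the share of higher genes was near that of all genes. None passed after adjustment, with a lowest limma adjusted p of 0.0977. The median log2 fold change was -0.19. Without HFpEF replicate 3, 5 of them (Ak4, Guk1, Slc25a42, Vdac1 and Vdac2) were lower at a limma adjusted p under 0.05. In that fit 5.5% of all genes tested were lower at the same threshold. Leaving that library out moved the log2 fold change of some genes named below by over 1.5 times. These were Vdac1 (to -0.33), Vdac2 (to -0.30), Nme4 (to -0.54), Slc25a42 (to -0.38), Ak3 (to -0.17) and Ampd2 (to 0.42). Some genes of the list not named below moved as much. Of those, Slc25a23 (-0.22 to 0.18) and Cmpk1 (0.15 to -0.067), picked after their values were seen, changed sign.

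The outer membrane channels let ATP, ADP and creatine phosphate cross the outer mitochondrial membrane. They were lower in 3 of 3 cases at an unadjusted limma p under 0.05, beside 13.1% of all genes tested and 54.4% of the 333 abundant nuclear genes. Vdac1 measured 390, 384 and 386 FPKM in Chow and 311, 305 and 182 FPKM in HFpEF (log2 fold change -0.58, limma adjusted p = 0.202). Guk1, which phosphorylates GMP, measured 35.6, 38.0 and 35.0 FPKM in Chow and 26.8, 21.9 and 23.1 FPKM in HFpEF (log2 fold change -0.60, limma adjusted p = 0.0977). Ak4, an adenylate kinase of the mitochondrial matrix, measured 12.9, 11.0 and 11.3 FPKM in Chow and 8.33, 7.64 and 5.77 FPKM in HFpEF (log2 fold change -0.70, limma adjusted p = 0.109). In these 3 genes every HFpEF library lay below every Chow library, as was so for 19.7% of all genes tested.

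The matrix GTP:AMP kinase Ak3 had a log2 fold change of -0.35 (limma adjusted p = 0.268). Slc25a42, a carrier of coenzyme A and adenine nucleotides, had a log2 fold change of -0.58 (limma adjusted p = 0.149), and Nme4, a mitochondrial nucleoside diphosphate kinase, of -0.85 (limma adjusted p = 0.206). Vdac2 and Vdac3 had log2 fold changes of -0.50 (limma adjusted p = 0.188) and -0.36 (limma adjusted p = 0.197).

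On the side of creatine synthesis, levels were low in both groups. Gatm, which makes guanidinoacetate, measured 1.64, 1.42 and 1.18 FPKM in Chow and 2.12, 2.89 and 2.36 FPKM in HFpEF (log2 fold change 0.75, limma adjusted p = 0.119), without overlap between groups. Gamt, which methylates guanidinoacetate to creatine, overlapped between groups (log2 fold change 0.05, limma adjusted p = 0.879). Ckmt1, the ubiquitous mitochondrial creatine kinase, measured 0.591, 0.102 and 0.265 FPKM in Chow and 0.463, 1.28 and 0.830 FPKM in HFpEF. These levels overlap and are far below those of Ckmt2. Slc25a31, an ADP/ATP carrier of the germ line, stayed under 0.5 FPKM in every library and was not tested. Ampd2, an AMP deaminase, had a log2 fold change of 0.74 (limma adjusted p = 0.188).

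**Figure D5:**
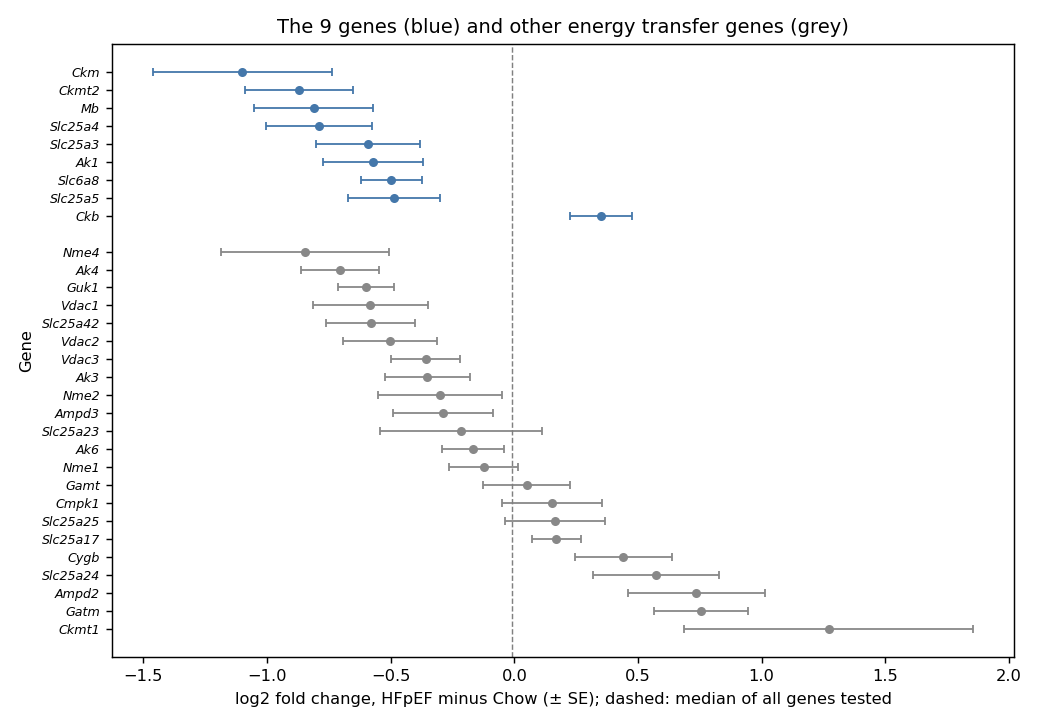
Fitted log2 fold change of HFpEF against Chow (dots, with SE as bars) for the 9 genes (blue) and the 22 other energy transfer genes tested (grey), with a dashed line at the median of all 14227 genes. The 8 lower genes run from -1.10 (Ckm) to -0.49 (Slc25a5) with Ckb at 0.35, and the other genes run from -0.85 (Nme4) to 1.27 (Ckmt1).

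Among 3694 genes with a mean of at least 10 FPKM, those whose log2 levels followed Ckm most closely over the 6 libraries were Crat (Pearson r = 0.999), which encodes carnitine acetyltransferase, Adhfe1, Wfs1, Ube2m and Acot7 (each r = 0.998). Crat measured 118, 119 and 105 FPKM in Chow and 86.4, 82.2 and 45.6 FPKM in HFpEF, with the dip in Chow replicate 3 that Ckm also shows. Those most like Ckb were Ltbp4 (r = 0.997), Actn4 (r = 0.994), Ogn (r = 0.989), Bgn (r = 0.988) and Csf1 (r = 0.988). Ltbp4, an extracellular protein that binds latent TGF-beta, measured 120, 124 and 120 FPKM in Chow and 163, 132 and 165 FPKM in HFpEF, so that HFpEF replicate 2 was again the nearest to Chow. Ogn and Bgn encode small proteoglycans of the extracellular matrix, and Actn4 a non-muscle actinin. The genes were ranked over the same 6 libraries, and so carry no test.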

How the data were processed

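RNA was sequenced from left ventricular myocardium of 3 Chow and 3 HFpEF mice, with a SMARTER mRNA-Seq kit per the labels. The authors aligned reads with HISAT2, counted them with featureCounts and deposited FPKM per gene. The submitters' processing notes name GRCm38 and mm10, and the annotation release, the FPKM formula and the use of strand are not given in the sources used here. Of 54532 gene identifiers, 54495 were in GENCODE M21, which supplied symbols, positions and exon lengths. FPKM times exon length came out at whole multiples of 1 step (relative tolerance 1e-06) for 96.1% to 96.2% of values above 0, which gave each gene's reads. The library denominators behind these steps are not the read sums, which points to a further scaling by the authors that is not named, and median-of-ratios factors were close to 1.

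Deposited FPKM were divided by median-of-ratios factors, offset by a pseudocount of 0.1 and taken to log2. The 14227 genes reaching 0.5 FPKM in 3 or more libraries were fitted with limma 3.58.1 (lmFit, eBayes with trend and robust options) in R 4.3.3. Fold changes are on that log2 scale, tests were two-sided, and p-values were Benjamini-Hochberg adjusted over all 14227 genes. limma was used because the file holds FPKM. An exact permutation test was run on each of the 9 genes. Alternatives covered the pseudocount, the filter, the scaling, the variance model, a replicate block, voom on recovered reads and leaving out each library. Scaling to cardiomyocyte markers without HFpEF replicate 3 was added after seeing the data. Same-numbered Chow and HFpEF libraries deviated from their group means with correlations of -0.041, -0.073 and -0.057, so replicate numbers do not pair mice.

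The 9 genes, the energy transfer list and the marker lists were chosen with earlier results of these data known. The named genes are the 9, up to 8 energy transfer genes of lowest p with 7 others, the 5 genes most correlated with Ckm and with Ckb, and at most the 3 highest of any marker list. Genes sharing sequence or exons with the 9, and those marked in the text, were named after their values were seen. One further energy transfer gene of the plan, and the ratio that used it, are not reported here.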

Additional observations from a re-analysis of the deposited data

How the results depend on the processing

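With 3 mice a group and 1 library that stands apart, the spread within HFpEF limits every call. Under all 18 alternatives Ckb stayed higher in HFpEF (log2 fold change 0.27 to 1.04) and Ckm and Ckmt2 stayed lower (-1.34 to -0.17 and -1.01 to -0.17), as did Slc25a4 (-0.90 to -0.0051). The direction of the other 5 genes depends on the scaling. Scaling to the FPKM sum gave 0.023 for Slc6a8 and 0.035 for Slc25a5. Scaling to cardiomyocyte markers gave 0.20 for Slc6a8, 0.12 for Ak1, 0.21 for Slc25a5 and 0.10 for Slc25a3, and without HFpEF replicate 3 it gave 0.037, 0.15, 0.22 and 0.14. Quantile normalization gave 0.14 for Mb. Set against the median of all genes tested in the same fit, Slc6a8, Slc25a5, Ak1 and Slc25a3 stayed below 0. Under quantile normalization Mb and Slc25a4 then stood at 0.19 and 0.045. The cause of these changes of sign was not tested.

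Of the 9 genes, 1 was higher after adjustment under marker scaling and 2 when HFpEF replicate 3 was also left out, against 0 as reported, where 35.1% and 53.2% of all genes were higher after adjustment. At an unadjusted p under 0.05, the 8 lower genes became 4 under FPKM-sum scaling and 2 under quantile normalization. They became 0 under marker scaling with or without HFpEF replicate 3. Of all 14227 genes tested, 117, 1672, 36 and 77 were lower at that p under these 4 settings, against 1869 as reported. The 1 higher gene became 3 under marker scaling without HFpEF replicate 3, beside 8742 of all genes. It became 0 with a replicate block, beside 1305. Of the energy transfer list, the 7 lower became 0, 4 and 0 under the same 3 scalings and 0 without HFpEF replicate 3 under marker scaling. The 2 higher became 6 under FPKM-sum scaling, 12 under marker scaling and 16 when HFpEF replicate 3 was also left out. Of all 14227 genes tested, 4113, 8298 and 8742 were higher at that p under these 3 settings, against 1454 as reported. After adjustment 6 and 10 of the list passed under the last 2, against 0 as reported, again beside 35.1% and 53.2% of all genes as higher.

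Over all genes, 13 passed as higher and 1 as lower after adjustment. FPKM-sum scaling gave 35 higher, marker scaling 4993 higher and 13 lower, and marker scaling without HFpEF replicate 3 gave 7566 and 49. Those scalings moved the median log2 fold change of all genes to 0.50, 0.66 and 0.48. eBayes without trend or robust options gave 27 higher and 6 lower, a pseudocount of 0.01 gave 4 higher, a pseudocount of 1 gave 3 higher and 0 lower, no filter gave 2 lower, and quantile normalization gave 3 lower. voom, a limma method, on recovered reads gave 0 and 0, with 1436 higher and 1923 lower at an unadjusted p under 0.05. A replicate block gave 2 higher and 0 lower over all genes, with 1305 higher and 1699 lower at an unadjusted p under 0.05, and passed none of the 9 after adjustment, although the numbers do not pair the mice.

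Leaving out each library in turn gave 2 to 406 higher and 0 to 782 lower over all genes, 0 to 7 lower and 0 to 0 higher of the 9 after adjustment, and 3 to 8 lower and 0 to 1 higher at an unadjusted p under 0.05. The highest counts after adjustment came without HFpEF replicate 3. For the energy transfer list these ranges were 2 to 7 lower and 1 to 4 higher at an unadjusted p under 0.05, and 0 to 5 after adjustment. The log2 difference of Ckm over Ckb ran from -1.75 to -0.95, of Slc25a4 over Slc25a5 from -0.33 to -0.27, and of Ckmt2 over Ckm from -0.0043 (without HFpEF replicate 3) to 0.42.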
